A study of Mus musculus with 14 samples.

Results

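Retinoid metabolism was followed through 7 genes, Aldh1a1, Aldh1a7, Rbp4, Rdh16, Lrat, Rarb and Cyp26a1, in whole mouse liver. They were picked by name, with earlier results from these same livers in view, and are 7 of the 57180 genes measured by RNA sequencing. The mice were littermates on normal chow, grouped by Pkd1 genotype as Homo (n = 4), Het (n = 4) and WT (n = 6). Every genotype label, WT included, also carries Cre. The labels name neither the Pkd1 allele nor the promoter that drives Cre, and give no sex, age or litter, so it is unknown which liver cells carry an altered Pkd1. Because the members were picked with values of these libraries in view, their differences between genotypes are given as a description, without a test.

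Vitamin A reaches the liver mostly as retinyl esters, which are hydrolysed to retinol for storage or export. Hepatocytes load retinol onto its plasma carrier RBP4, while hepatic stellate cells esterify it through LRAT and keep the esters in lipid droplets. Retinol is oxidised to retinaldehyde by short-chain and alcohol dehydrogenases and then to retinoic acid by retinaldehyde dehydrogenases such as ALDH1A1. Retinoic acid binds nuclear receptors, among them RARB, and is cleared by the hydroxylases CYP26A1 and CYP26B1. Rarb and Cyp26a1 are themselves classical retinoic acid targets.

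The liver identity of the libraries was clear from their markers. All 8 hepatocyte markers were detected, and albumin (Alb) ran from 31705 to 56865 CPM in Homo, 33850 to 42012 CPM in Het and 35461 to 50685 CPM in WT livers (CPM, counts scaled to a common library size). All 16 stellate markers were detected too. Pkd1 was at 25.3 ± 1.51 CPM in Homo, 32.2 ± 3.52 CPM in Het and 34.8 ± 2.77 CPM in WT livers (mean ± SD), and every Homo library (23.1 to 26.4 CPM) lay below every WT library (31.4 to 37.7 CPM). Reads outside any deleted part of the gene count towards these values. Total counts per library were 18573739 to 28431875 in Homo, 22833853 to 26245475 in Het and 25238140 to 40925973 in WT. In bulk liver, fewer cells of a type and less RNA per cell cannot be told apart.

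The stretches of DNA just before the start sites are shown for the genes whose values stand out below. RefSeq start sites (GRCm38.p6) were found for all 7 genes, with 9 windows in all, each reaching from 250 bases before to 50 bases after the start. They were searched on both strands for direct repeats of a hexamer with 5 bases between the copies, where each copy was the consensus AGGTCA or differed from it as AGTTCA does, as GGTTCA does or as GGGTCA does, the arrangement known from retinoic acid response elements. Such a repeat was in 32 of 32851 promoter windows (0.0974%), and among the 7 genes in those of Rarb and Cyp26a1. In Rarb it matched GGTTCANNNNNAGTTCA, starting 53 bases before the start site, and in Cyp26a1 it matched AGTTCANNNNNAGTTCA read from the opposite strand, starting 32 bases before the start site. The 250 bases before each start are printed on the gene's own strand, 5′ to 3′, with the repeated hexamers in capitals. Rarb is at chr14:16575477-16575726 on the minus strand and Cyp26a1 at chr19:37697558-37697807 on the plus strand.
Rarb: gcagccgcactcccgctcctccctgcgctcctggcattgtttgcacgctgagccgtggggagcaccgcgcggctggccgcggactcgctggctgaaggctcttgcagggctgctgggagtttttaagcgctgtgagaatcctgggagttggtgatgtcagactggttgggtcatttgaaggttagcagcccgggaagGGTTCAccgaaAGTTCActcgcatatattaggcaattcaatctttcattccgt
Cyp26a1: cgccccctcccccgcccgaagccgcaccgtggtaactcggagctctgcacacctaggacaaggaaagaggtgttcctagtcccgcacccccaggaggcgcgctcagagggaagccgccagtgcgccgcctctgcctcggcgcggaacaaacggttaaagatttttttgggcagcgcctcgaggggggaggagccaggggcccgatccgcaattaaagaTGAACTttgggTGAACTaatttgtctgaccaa
A match is a description of the letters and shows no binding. Rarb and Cyp26a1 were classical retinoic acid targets before the search, so nothing is read from their matches beside the share of all windows.

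Aldh1a1 and Aldh1a7 are neighbours on chromosome 19 and close relatives. The 250 bases before their starts share an identical block of 65 bases, in capitals. Aldh1a1 is shown at chr19:20601718-20601967 on the plus strand, the RefSeq start nearer Aldh1a7, and Aldh1a7 at chr19:20727557-20727806 on the minus strand.
Aldh1a1: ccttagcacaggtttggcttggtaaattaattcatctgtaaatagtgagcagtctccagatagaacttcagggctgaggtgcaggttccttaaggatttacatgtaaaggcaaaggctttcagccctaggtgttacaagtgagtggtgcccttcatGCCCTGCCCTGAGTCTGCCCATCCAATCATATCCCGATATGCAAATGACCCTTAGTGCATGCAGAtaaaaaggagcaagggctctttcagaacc
Aldh1a7: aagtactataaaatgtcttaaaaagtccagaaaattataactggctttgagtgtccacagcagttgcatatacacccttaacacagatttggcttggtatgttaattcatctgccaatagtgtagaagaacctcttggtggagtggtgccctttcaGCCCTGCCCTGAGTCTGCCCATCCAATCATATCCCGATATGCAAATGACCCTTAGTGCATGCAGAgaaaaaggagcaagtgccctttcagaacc
Their transcripts were 89.0% identical over 2039 bases, and the estimated counts of both genes were fractional in all 14 libraries, so the division of reads between them is uncertain.

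Per kilobase of transcript, the order of the 7 genes was the same in all genotypes. Rbp4 was highest, at 1386 CPM per kb in Homo, 1473 in Het and 1503 in WT, followed by Aldh1a1 (143, 196 and 166 CPM per kb in the same order) and Aldh1a7 (63.2, 75.0 and 65.5). Rdh16 (9.99, 9.91 and 11.9 CPM per kb) and Lrat (4.11, 3.75 and 4.66) came next. Cyp26a1 (1.74 in Homo, 2.64 in Het and 4.32 CPM per kb in WT) and Rarb (1.17, 1.17 and 1.36) were lowest. Cyp26a1 overlapped Rarb in Homo and in WT libraries but not in Het libraries. It also overlapped Lrat in Het and in WT, so the order of these low genes is not fixed library by library. Within each genotype, the libraries of each other neighbouring pair in this order did not overlap.

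Aldh1a1 (ENSMUSG00000053279), which makes retinoic acid from retinaldehyde, was highest in Het livers and lowest in Homo livers. It was at 347.7, 304.1, 313.6 and 383.1 CPM in Homo 1 to 4 and at 479.1, 447.5, 494.7 and 430.6 CPM in Het 1 to 4. In WT livers the lowest value was 369.8, the median 375 and the highest 469.2 CPM. Every Homo library lay below every Het library, while WT overlapped both, through Homo 4 on the low side and WT 3 on the high side. The mean was 337 ± 35.9 CPM in Homo, 463 ± 29.2 CPM in Het and 392 ± 38.7 CPM in WT (SD). Homo against Het gave a log2 fold change of -0.46 (SE 0.0946, fold 0.728, 95% interval 0.633 to 0.837). Against WT it was -0.22 for Homo (SE 0.0867, fold 0.860, interval 0.756 to 0.977) and 0.24 for Het (SE 0.0857, fold 1.18, interval 1.04 to 1.34). These contrasts share libraries, and the Homo and Het values lay on opposite sides of WT.

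Aldh1a7 (ENSMUSG00000024747), the rodent paralog of Aldh1a1, was at 147.3, 135.0, 146.5 and 93.22 CPM in Homo 1 to 4. In Het 1 to 4 it was at 164.6, 157.9, 148.0 and 149.6 CPM. WT livers ran from 124.2 to 160.4 CPM with a median of 131 CPM. The Homo and Het libraries did not overlap, by a narrow margin (147.3 against 148.0 CPM), and WT overlapped both. The means were 131 ± 25.5 CPM in Homo, 155 ± 7.71 CPM in Het and 135 ± 14.1 CPM in WT (SD), with log2 fold changes of -0.05 (SE 0.114) for Homo and 0.20 (SE 0.114) for Het against WT. Homo 4 decided the sign of the Homo value, which was 0.08 without that library.

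Since reads may be shared between these relatives, their sum is the safer quantity. The summed level of Aldh1a1 and Aldh1a7 was 495, 439, 460 and 476 CPM in Homo 1 to 4 and 644, 605, 643 and 580 CPM in Het 1 to 4. In WT it ran from 499 to 610 CPM with a median of 512 CPM. Each Homo library was below each Het and each WT library, the closest being Homo 1 at 495 CPM and WT 6 at 499 CPM, and WT 3 at 610 CPM lay within the Het range. Of all genes, 1.15% did not overlap in Homo against WT and 2.94% in Homo against Het. Neither gene alone separated Homo from WT. Because both genes were picked with these values in view, nothing is read from the separation of their sum. The share of Aldh1a7 in this sum was 29.8, 30.7, 31.8 and 19.6% in Homo 1 to 4. It was 25.1 ± 1.40% in Het and 25.7 ± 2.54% in WT (SD). Homo 4 thus had both the highest Aldh1a1 and the lowest Aldh1a7 of its group. That library also had the highest summed level of the 8 hepatocyte markers (83128 CPM, against 57629 to 75927 CPM in the other 13), and the part of this in its Aldh1a7 level was not tested.

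**Figure D1:**
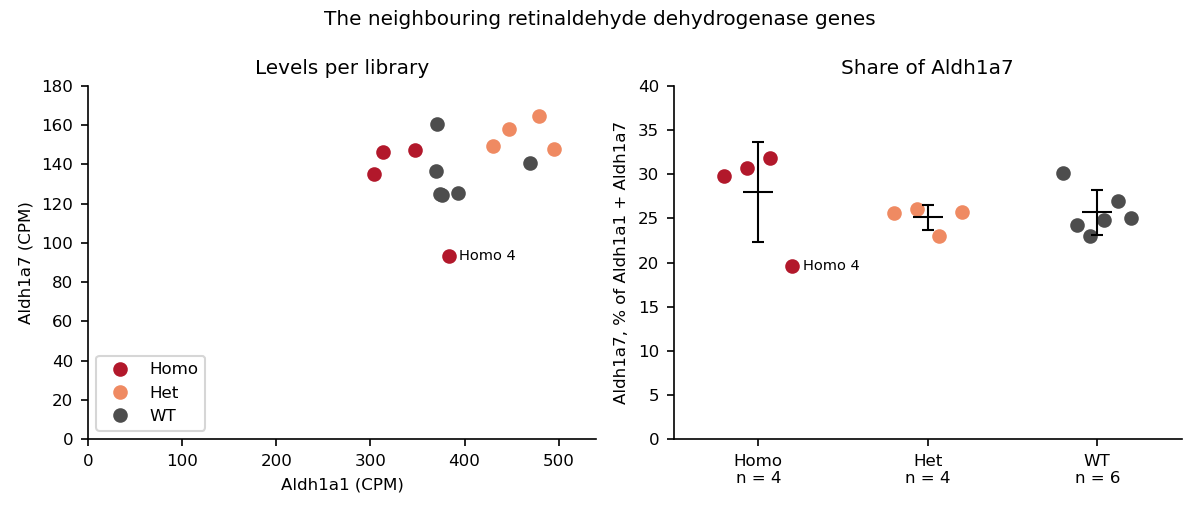
Left, Aldh1a7 against Aldh1a1 in CPM, 1 point per library; right, Aldh1a7 as a percentage of the summed level of both genes, with the mean and SD per genotype. Homo libraries lie left of all Het libraries, and Homo 4 stands apart from its group with a share of 19.6%.

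Rbp4 (ENSMUSG00000024990), the plasma carrier of retinol, was the steadiest of the 7. It was at 1506, 1512, 1740 and 1681 CPM in Homo 1 to 4 and at 1567, 1596, 1935 and 1745 CPM in Het 1 to 4. WT livers had a lowest value of 1658, a median of 1697 and a highest value of 1927 CPM. All 3 genotypes overlapped, and over the 14 libraries the highest value was 1.28 times the lowest. The log2 fold change against WT was -0.12 in Homo (SE 0.078, interval of the fold 0.822 to 1.03) and -0.03 in Het (interval 0.874 to 1.10).

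Rdh16 (ENSMUSG00000069456), a short-chain dehydrogenase of the retinol dehydrogenase family, had wide groups that overlapped. It was at 37.7, 25.7, 25.0 and 39.7 CPM in Homo 1 to 4 and at 25.5, 34.8, 33.1 and 33.6 CPM in Het 1 to 4. WT livers ran from 28.2 to 48.9 CPM with a median of 38.8 CPM. Homo 2, Homo 3 and Het 1 were below the WT range and the rest inside it. The log2 fold changes were -0.25 in Homo and -0.27 in Het against WT (SE 0.17 each). Its transcript was 94.1% identical to that of Rdh9 over 1892 bases and 89.7% to 92.1% to those of Rdh1, Rdh16f2 and Rdh19, and its estimated counts were fractional in all 14 libraries. The division of reads is therefore uncertain here too. The family sum was 101 ± 20.6 CPM in Homo, 96.6 ± 3.73 CPM in Het and 109 ± 26.2 CPM in WT (SD), again overlapping.

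Lrat (ENSMUSG00000028003), which esterifies retinol for storage and marks stellate cells in liver, was at 21.2, 21.2, 22.6 and 22.9 CPM in Homo 1 to 4. In Het 1 to 4 it was at 21.1, 14.2, 22.7 and 22.3 CPM. WT livers ran from 17.1 to 35.5 CPM with a median of 24.6 CPM. The Homo libraries lay close together inside the WT range, Het 2 was lowest of all, and WT 1 was highest. The log2 fold change against WT was -0.18 in Homo (SE 0.169) and -0.31 in Het (SE 0.170). Without WT 1 and WT 2, whose Cyp26a1 stood apart, these values were 0.02 and -0.11.

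Rarb (ENSMUSG00000017491), a retinoic acid receptor that is itself induced by retinoic acid, was at 3.57, 3.64, 3.51 and 3.79 CPM in Homo 1 to 4. In Het 1 to 4 it was at 3.26, 4.09, 2.95 and 4.22 CPM. WT livers ran from 2.68 to 5.87 CPM with a median of 3.92 CPM. WT 1 (5.87 CPM) and WT 2 (5.69 CPM) were above all other libraries, and the other 4 WT livers overlapped Homo and Het. The log2 fold change against WT was -0.23 in Homo and -0.22 in Het with all libraries, and 0.06 in each without WT 1 and WT 2.

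Cyp26a1 (ENSMUSG00000024987), which clears retinoic acid, had the widest range of the 7 relative to its level. It was at 2.51, 4.29, 1.97 and 3.68 CPM in Homo 1 to 4 and at 6.72, 3.46, 4.38 and 4.35 CPM in Het 1 to 4. In WT 1 to 6 it was at 16.2, 17.3, 4.31, 2.69, 3.06 and 2.86 CPM. WT 1 and WT 2 stood apart from the other 12 libraries, which ran from 1.97 to 6.72 CPM, and the other 4 WT livers (3.23 ± 0.735 CPM) overlapped both Homo and Het. These levels rest on 52 to 105 counts per library in Homo, 76 to 161 in Het and 70 to 483 in WT, so the gap is far above counting error. Over all libraries the log2 fold change was -1.32 for Homo (SE 0.559, fold 0.400, interval 0.175 to 0.916) and -0.71 for Het (SE 0.539, fold 0.613) against WT. Without WT 1 and WT 2 it was -0.07 (SE 0.271) for Homo and 0.54 (SE 0.267) for Het. The low mean of Homo relative to WT therefore rests on these 2 WT libraries, and for Het even the sign does.

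**Figure D2:**
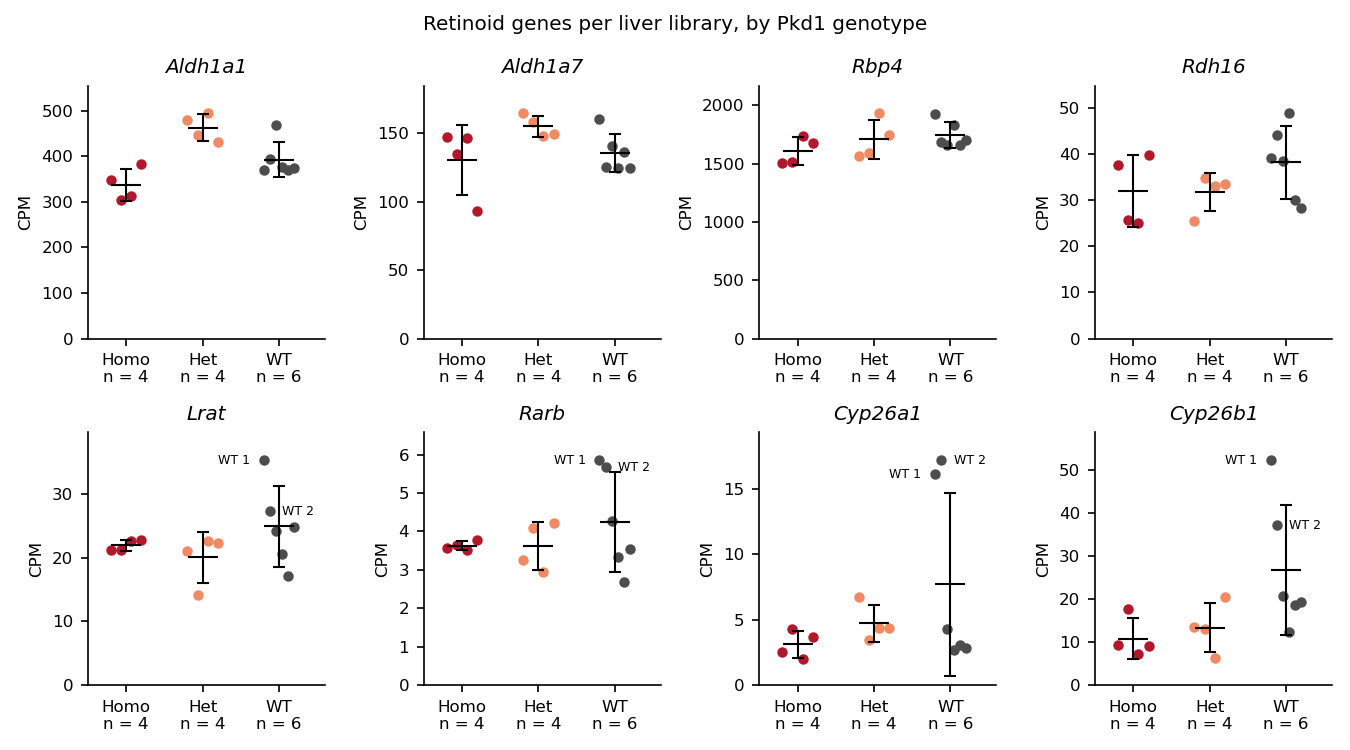
Level of each of the 7 genes and of Cyp26b1 in CPM, 1 point per library, with the mean and SD (bars) for Homo, Het and WT. Aldh1a1 separates Homo from Het, and WT 1 and WT 2 are labelled where they are the highest libraries, as for Cyp26a1 at 16.2 and 17.3 CPM.

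**Figure D3:**
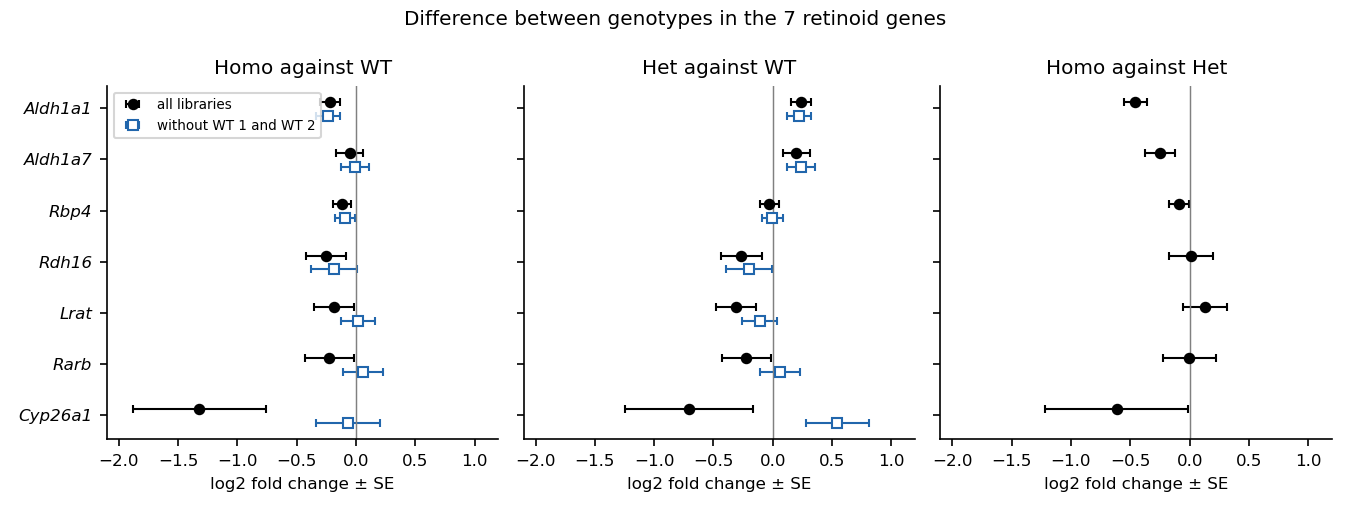
Log2 fold change of each of the 7 genes with its SE for the 3 contrasts of Homo, Het and WT, with all libraries (filled circles) and without WT 1 and WT 2 (open squares, WT contrasts). Aldh1a1 keeps its values (-0.22 and -0.24 in Homo), while Cyp26a1 in Homo is at -1.32 with these libraries and at -0.07 without them.

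WT 1 and WT 2 were both above all 12 other libraries for 3 of the 7 genes, Cyp26a1, Rarb and Lrat, which was so for 301 of 16183 genes with a name of their own (1.86%). For Cyp26a1 the lower of both exceeded the highest other library 2.41 times, and it was the 1 gene of those 16183 with a gap of at least 2 times. Since this pair was singled out because its Cyp26a1 stood apart, that rank follows in part from the choice of libraries. Nothing is read from it. The gap was 1.33 times for Rarb and 1.11 times for Lrat. Among 49 other retinoid genes, Cyp26b1 (1.80 times), Rdh9 (1.03 times) and the receptor gene Rara (1.00 times) had both libraries on top as well. Levels of cell type markers were also read in these livers. The summed stellate markers were 571 CPM in WT 1, the highest of the WT livers, and 490 CPM in WT 2. They ran from 513 to 558 CPM in Homo, 451 to 618 CPM in Het and 446 to 571 CPM in WT, so WT 1 lay above and WT 2 below the Homo range. Summed pericentral hepatocyte markers were 6897 CPM in WT 1 and 7953 CPM in WT 2, the highest of all libraries. The 9 lymphocyte markers, of which 6 passed the filter on low counts, summed to 34.3 to 43.6 CPM in Homo, 33.2 to 36.8 CPM in Het and 18.8 to 32.5 CPM in WT. This was the 1 marker list of 9 whose sum did not overlap WT in Homo or in Het, and WT 1 was the lowest library at 18.8 CPM, with WT 2 at 30.1 CPM. None of the lymphocyte markers was at 0 in all libraries, and the pan-leukocyte gene Ptprc and Cd3e made up most of the sum. In mean CPM, Cd3e differed most from WT, at 18.46 in Homo, 16.86 in Het and 11.71 in WT. Cd3g was at 0.361, 0.396 and 0.324 CPM in the same order. The mean of Cd8a was below WT in Homo and Het, and those of Cd79a and Nkg7 were below WT in Het only. Those of the other markers were above WT in both. The sum without Cd3e was not tested. The part of any of these cell types in the Cyp26a1 level, or in the other differences from WT, was not tested.

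The threshold for a called gene was an adjusted p under 0.05 in edgeR over 16201 genes. None of the 7 genes was called in Homo against WT (0.222% of all genes were), in Het against WT (0.0556%) or in Homo against Het (0.0309%). Their unadjusted p was under 0.05 for 2 (Aldh1a1 and Cyp26a1), 1 (Aldh1a1) and 1 (Aldh1a1) of the 7 in these contrasts. Of all genes tested, 4.73%, 4.67% and 5.1% had such a p. DESeq2 called 0, 0 and 1 of the 7, the last being Aldh1a1 in Homo against Het, beside 0.274%, 0.171% and 0.131% of all genes to which it gave an adjusted p. Groups did not overlap for 2 of 7 genes in Homo against Het (2.94% of all genes) and for 0 of 7 against WT, in Homo (1.15%) or in Het (1.2%). The median log2 fold change of the 7 was -0.22 in Homo and -0.22 in Het against WT, beside 0.00 and -0.00 over all genes tested. Because the genes were picked with these values known, nothing is read from these counts.

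Apart from genotype, mice differed most in Cyp26a1. Its SD of log2 CPM around the genotype means was 0.903, which placed it at percentile 97.8 among the 500 genes nearest in level. That SD includes WT 1 and WT 2 (16.2 and 17.3 CPM), while the other 12 libraries ran from 1.97 to 6.72 CPM. Rdh16 (0.298, percentile 93.4) and Lrat (0.294, percentile 91.2) were also variable for their level, Aldh1a7 (0.194, percentile 80.4) and Rarb (0.324, percentile 68.8) less so. Aldh1a1 (0.129, percentile 50.6) and Rbp4 (0.109, percentile 31.6) were near or below the middle. For their level, the 7 genes therefore ranged from somewhat below the middle to highly variable between mice of a genotype, whose litters the labels do not give.

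Covariation between mice was compared for the 21 pairs of members, with genotype means removed. No pair passed after Benjamini-Hochberg adjustment over the 21 (permutation of libraries within genotypes, two-sided, 100000 resamples, n = 14), and 2 had an unadjusted p under 0.05, Rarb with Cyp26a1 and Lrat with Cyp26a1. Because WT 1 and WT 2 form a cluster of their own for Cyp26a1, its pairs are given over the other 12 libraries. There the Pearson r was 0.07 for Rarb (Spearman rho -0.02) and 0.32 for Lrat (rho 0.27), with permutation p of 0.80 and 0.294 and adjusted p of 0.840 and 0.741. Over all 14 libraries the r was 0.75 for Rarb and 0.67 for Lrat. For Cyp26b1 with Cyp26a1 it was 0.75 over 14 libraries and 0.46 over 12. WT 1 and WT 2 were left out for their high Cyp26a1, so a lower r was built into that choice. With 12 libraries, these values cannot show that no covariation remains. For Aldh1a1 with Aldh1a7 the r was -0.35 over 14 libraries (rho -0.22, permutation p = 0.342, adjusted p = 0.956) and -0.09 without Homo 4 and WT 3.

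**Figure D4:**
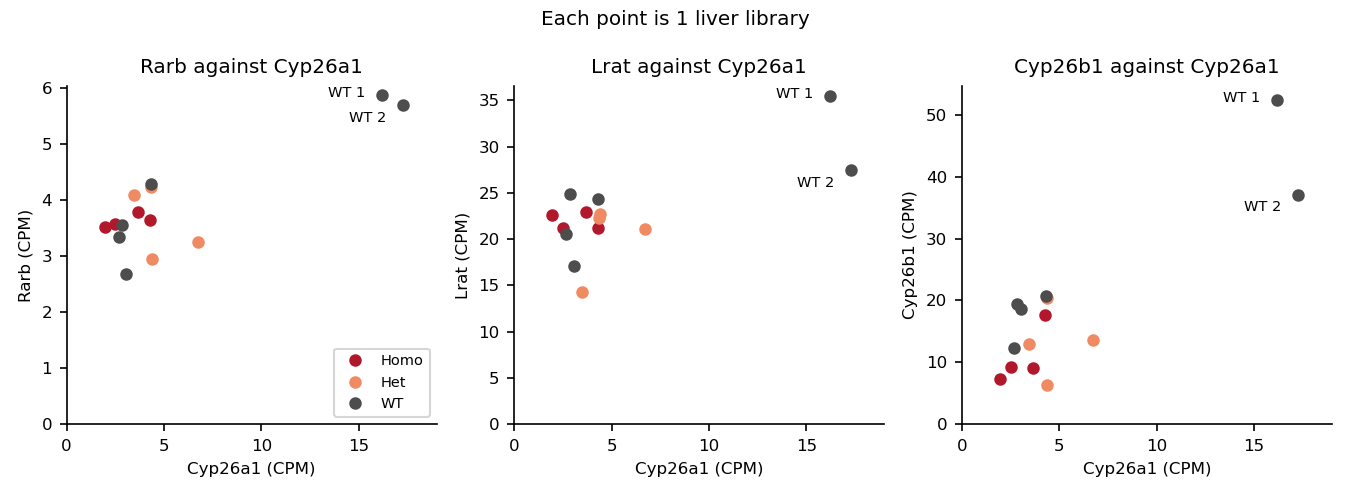
Rarb, Lrat and Cyp26b1 against Cyp26a1, all in CPM, 1 point per library, coloured by genotype. WT 1 and WT 2 lie at 16.2 and 17.3 CPM of Cyp26a1, and the other 12 libraries form a cloud between 1.97 and 6.72 CPM.

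Levels were also set beside the mean log2 level of marker lists, with genotype means removed, as a description over 14 libraries that share their scaling. Lrat had an r of 0.75 with the 16 stellate markers, from which Lrat itself was left out, and Rbp4 one of 0.80. Rarb (0.09) and Cyp26a1 (0.13) showed little relation to that list. WT 1 had the highest Lrat of all libraries (35.5 CPM). Among WT livers it also had the highest Rbp4 (1927 CPM) and the highest stellate sum (571 CPM). How far the r of Lrat and of Rbp4 rests on WT 1 was not tested. Aldh1a7 had an r of -0.90 with the hepatocyte markers and -0.74 with the sinusoidal endothelial markers. Homo 4 had the lowest Aldh1a7 of all libraries (93.2 CPM) and the highest summed level of both lists (83128 and 420 CPM). How far both values rest on that library was not tested. For Aldh1a1 the r was 0.54 with the sinusoidal endothelial, -0.50 with the lymphocyte, 0.41 with the periportal, 0.25 with the hepatocyte and -0.01 with the pericentral markers. Its r with the other 4 lists lay between -0.23 and 0.21. Rdh16 had an r of 0.62 with the sinusoidal endothelial and -0.63 with the lymphocyte markers, and Aldh1a7 one of -0.59 with the periportal markers.

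For each of the 7 genes, the genes whose log2 levels were most like it over the 14 libraries were picked by Pearson r among 11546 genes. Genotype means were left in here, so a gene with the same order of genotypes can rank high. Aldh1a1 was most like Invs (r = 0.84), Ivd (0.84) and Lgalsl (0.83). For Aldh1a7 they were Capn3 (0.90), Degs1l (0.84) and H2bc23 (0.84), and for Rbp4 they were Abcf1 (0.88), Chd3 (0.87) and Cox20 (0.86). None of these is on the retinoid lists. Rdh16 was most like Mpc2 (0.92), Abcd2 (0.87) and Tmem106b (0.87), and Lrat most like Ccdc57 (0.88), Prelp (0.85) and Morf4l1 (0.85). Rarb was most like Itfg2 (0.84), Ctnnbip1 (0.81) and Vsig8 (0.81), and Cyp26a1 most like Prr13 (0.84), Cfap36 (0.83) and Vsig8 (0.81). Vsig8 was thus the 1 gene that appeared for more than 1 of the 7, and values this high are the top of all those compared over few libraries.

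The rest of the pathway was read from a list of 62 other retinoid genes in 7 roles, of which 49 passed the filter on low counts. In edgeR 0 of 49 were called in each of the 3 contrasts. Unadjusted p under 0.05 was reached by 5 genes against WT in Homo (1 higher, 4 lower), by 5 in Het (1 higher, 4 lower) and by 1 between Homo and Het. That is 10.2%, 10.2% and 2.04% of the 49, beside 4.73%, 4.67% and 5.1% of all genes tested. DESeq2 called 1, 0 and 0 of them, beside its 0.274%, 0.171% and 0.131% of all genes. The median log2 fold change of the 49 was -0.01 in each contrast, close to the 0.00 of all genes tested in Homo against WT.

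Binding and uptake genes gave no call among 6 tested. Ttr, the plasma partner of RBP4, was at 3366 ± 381 CPM in Homo, 3257 ± 274 CPM in Het and 3678 ± 678 CPM in WT (SD). Scarb1, a carotenoid and lipoprotein receptor, was at 104 ± 13.4, 107 ± 16.4 and 107 ± 8.90 CPM in the same order. Stra6l, a liver receptor for RBP4, was at 98.0 ± 3.47 CPM in Homo, 98.6 ± 6.19 CPM in Het and 95.5 ± 3.91 CPM in WT. Stra6, the RBP4 receptor of other tissues, had 0 counts in all 14 libraries, which allows at most 0.073 to 0.165 CPM at 3 counts per library, counting error only. The cellular binding protein genes Rbp2, Crabp1 and Crabp2 had at most 2 counts in any library.

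Of the 9 genes for esters and provitamin A, Retsat, the retinol saturase, differed most against WT in p. It was at 70.5, 68.5, 89.5 and 78.4 CPM in Homo 1 to 4 and 77.8, 110, 66.9 and 77.8 CPM in Het 1 to 4. WT livers ran from 84.4 to 126 CPM with a median of 106 CPM. Most Homo and Het libraries were below the WT range, but Homo 3 and Het 2 lay inside it. Against WT the log2 fold change was -0.46 in Homo (SE 0.140, edgeR adjusted p = 0.732) and -0.34 in Het (edgeR adjusted p = 0.998), so neither passed. Ces1e, a carboxylesterase that can hydrolyse retinyl esters, was at 47.7 ± 13.9 CPM in Homo, 48.4 ± 7.61 CPM in Het and 52.5 ± 14.2 CPM in WT. Pnpla2, the adipose triglyceride lipase, was at 44.9 ± 2.66, 47.1 ± 6.10 and 44.5 ± 2.81 CPM in the same order.

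Among 18 tested dehydrogenases and reductases that interconvert retinol and retinaldehyde, the abundant members were level across genotypes to within their spread. Adh1, the main hepatic alcohol dehydrogenase, was at 1161 ± 328 CPM in Homo, 1276 ± 127 CPM in Het and 1231 ± 109 CPM in WT (SD). Rdh7 was at 465 ± 18.0, 457 ± 35.7 and 468 ± 61.4 CPM and Adh5 at 229 ± 14.4, 229 ± 5.21 and 232 ± 8.43 CPM in the same order. Rdh11, a retinaldehyde reductase singled out after its values were seen, was at 49.9, 49.1, 35.2 and 42.0 CPM in Homo 1 to 4. It was at 51.0, 33.8, 34.0 and 39.1 CPM in Het 1 to 4 and ran from 27.3 to 34.1 CPM in WT. Every Homo library was above every WT library. Homo against WT gave a log2 fold change of 0.52 (SE 0.124, edgeR adjusted p = 0.268), and DESeq2 gave 0.51 with an adjusted p of 0.0378, the 1 of 23 settings under the threshold (range 0.0378 to 0.871).

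Of that role, Hsd17b13 and Hsd17b6 were also singled out after their values were seen. Hsd17b13, a lipid droplet enzyme with retinol dehydrogenase activity known in humans, was at 135, 219, 70.4 and 169 CPM in Homo 1 to 4 and 151, 156, 166 and 62.9 CPM in Het 1 to 4. WT livers ran from 191 to 263 CPM with a median of 242 CPM. All Het libraries and 3 of 4 Homo libraries were below the WT range, but neither contrast passed (log2 fold change -0.67 in Homo with edgeR adjusted p = 0.998, and -0.82 in Het with edgeR adjusted p = 0.977). Hsd17b6, a related short-chain dehydrogenase, was at 79.6 ± 11.8 CPM in Homo, 38.5 ± 14.7 CPM in Het and 63.2 ± 22.0 CPM in WT, and in Homo against Het its log2 fold change was 1.05 (SE 0.284, edgeR adjusted p = 0.916).

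**Figure D5:**
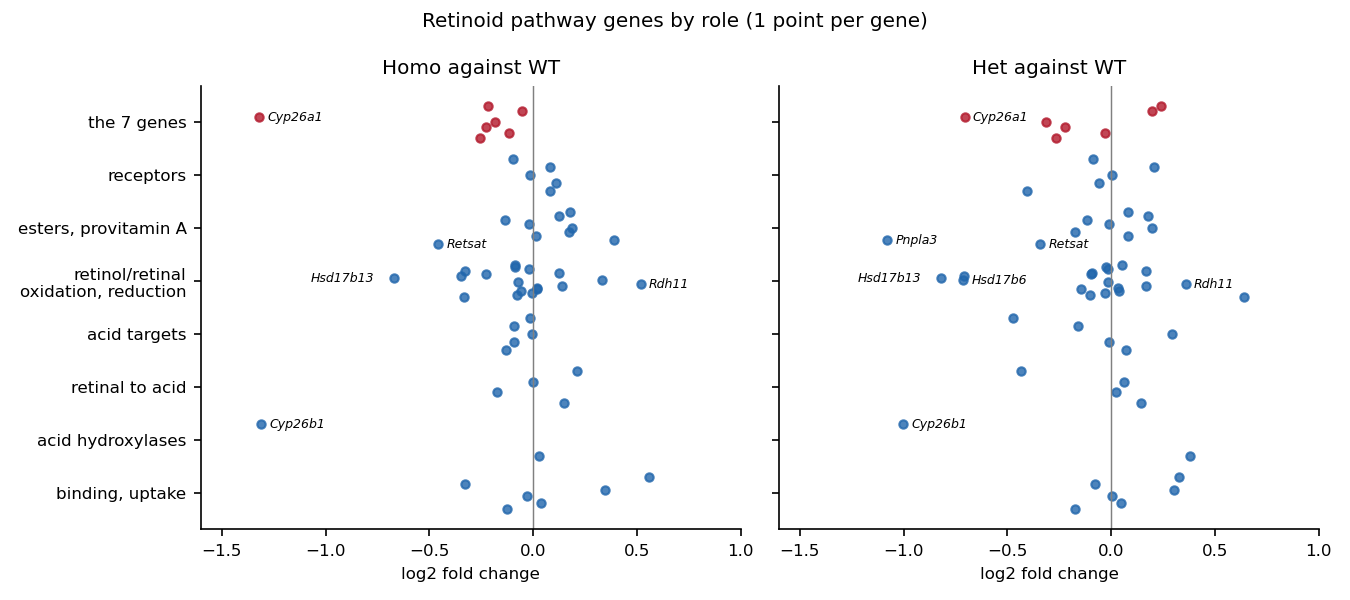
Log2 fold change of each tested gene against WT, for Homo (left) and Het (right), with the 7 genes in red and the 49 other retinoid genes in blue by role. Most genes lie near 0, and the hydroxylase Cyp26b1 lies at -1.31 in Homo, next to Cyp26a1 at -1.32.

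For the step to retinoic acid, 4 genes outside the 7 members were tested and 0 called in edgeR. Aox3, an aldehyde oxidase, was at 851, 1077, 988 and 428 CPM in Homo 1 to 4. It was at 833 ± 73.5 CPM in Het and 753 ± 32.1 CPM in WT (SD). Homo 4 was thus the lowest library for Aox3 as it was for Aldh1a7. Aldh8a1, an aldehyde dehydrogenase reported to act on retinaldehyde, was at 257 ± 9.73 CPM in Homo, 268 ± 19.2 CPM in Het and 257 ± 22.8 CPM in WT. Aox1, another aldehyde oxidase, was at 60.6 ± 6.92, 69.7 ± 7.46 and 68.5 ± 14.5 CPM in the same order. Aldh1a2 had at most 10 counts in any library.

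The hydroxylase Cyp26b1, the relative of Cyp26a1, had the same pair of libraries on top and a higher mean CPM than Cyp26a1 in every genotype. It was at 9.21, 17.7, 7.22 and 9.00 CPM in Homo 1 to 4 and at 13.6, 13.0, 6.37 and 20.5 CPM in Het 1 to 4. In WT 1 to 6 it was at 52.4, 37.2, 20.7, 12.4, 18.6 and 19.4 CPM. The log2 fold change was -1.31 in Homo (SE 0.407, edgeR adjusted p = 0.749) and -1.0 in Het (SE 0.401, edgeR adjusted p = 0.998) against WT. Without WT 1 and WT 2 it was -0.72 (SE 0.326, edgeR adjusted p = 0.636) in Homo and -0.42 (SE 0.323, edgeR adjusted p = 0.902) in Het. The sign thus stayed negative in both genotypes, whereas that of Cyp26a1 in Het did not. Cyp2c39, which hydroxylates retinoic acid in mouse, was at 0.779 ± 0.399 CPM in Homo, 0.976 ± 0.351 CPM in Het and 0.747 ± 0.514 CPM in WT, and Cyp26c1 had at most 10 counts in any library.

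Receptors gave no call among 5 tested. Rxra, the predominant hepatic retinoid X receptor, was at 309 ± 15.4 CPM in Homo, 314 ± 7.04 CPM in Het and 313 ± 16.9 CPM in WT (SD). Rara was at 27.4 ± 4.12, 27.6 ± 2.30 and 29.3 ± 4.04 CPM and Rxrb at 16.3 ± 0.513, 14.5 ± 0.994 and 15.1 ± 1.91 CPM in the same order. Of the other retinoic acid targets, 5 were tested with 0 called. Rarres2, which encodes the chemoattractant chemerin, was at 278 ± 7.50 CPM in Homo, 294 ± 40.2 CPM in Het and 296 ± 22.5 CPM in WT. Tgm2, a transglutaminase induced by retinoic acid, was at 62.7 ± 5.69, 72.1 ± 16.1 and 68.7 ± 9.37 CPM, and Rarres1 at 39.0 ± 12.4, 47.9 ± 11.3 and 39.1 ± 12.4 CPM in the same order. In none of these 5 targets were WT 1 and WT 2 both above all other libraries, which was so for 1.86% of 16183 genes. Outside these 5, both were on top for Cyp26a1, Rarb, Lrat, Cyp26b1, Rdh9 and Rara. With so few targets and so low a share, nothing is read from this count.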

How the data were processed

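RNA from whole liver of 14 mice was extracted with Trizol and RNeasy columns and made into libraries with a NuGen Ovation kit, per the labels' protocols. The deposited table held estimated counts per gene. STAR, Salmon and GRCm39 are listed in the submitters' processing notes; the sources used here do not give their roles, the annotation or whether strand was used. Counts were rounded to whole numbers. With edgeR 4.0.16 in R 4.3.3, genes were kept by filterByExpr (count minimum 10), which left 16201, scaled by TMM and fitted together (glmQLFit and glmQLFTest, two-sided), with Benjamini-Hochberg adjustment. CPM are relative to the effective library size. DESeq2 1.42.0 was an alternative. The fit was tested on simulated data. The labels do not say whether litters or cages differed, so p-values measure the spread between these samples. The closest pair of libraries had a chi-square of 23.7 per degree of freedom, well above sampling noise, so none looks like a repeat sequencing of another. Each library was counted as 1 replicate. That value does not test whether the libraries are independent of litter or cage. The members and the lists of genes were chosen with earlier results of these data known. Named genes were the 7 members, from each role the 3 with the highest mean CPM, any called gene, and for each member the 3 most alike among genes of at least 1 CPM. Levels per kb used the longest coding transcript of GENCODE M21 (GRCm38). Because that build differs from the table's, gene places served only for chromosomes, and promoters are given in RefSeq's own GRCm38.p6 coordinates. Transcripts were compared by BLAST. Alternatives were the scaling, the tool, the filter, the libraries in the fit, a replicate block, leaving out each library and leaving out chromosome 17. Leaving out WT 1 and WT 2 together was added after the values were seen.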

Additional observations from a re-analysis of the deposited data

Results flagged for a closer look

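Within genotypes of 4 or 6 libraries, 6 values stood apart from the rest of their group by Dixon's test, among 84 groups of 27 genes and gene shares. Chance flags about 1 in 20 such groups. Aldh1a1 was at 469 CPM in WT 3, against 370 to 393 CPM in the other WT livers. The Aldh1a7 share of the summed level of Aldh1a1 and Aldh1a7 was 19.6% in Homo 4, against 29.8 to 31.8% in the other Homo livers. The same share was 23% in Het 3, against 25.6 to 26.1% in the other Het livers. Stra6l was at 103 CPM in Homo 1, against 95.7 to 96.7 CPM in the other Homo livers. Ces1e was at 68.4 CPM in Homo 1, against 38.4 to 42.9 CPM in the other Homo livers. Cyp2c39 was at 1.37 CPM in Homo 4, against 0.529 to 0.654 CPM in the other Homo livers.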

How the results depend on the processing

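For the 7 genes, no other alternative moved a log2 fold change by more than the spread between libraries. Leaving out both WT 1 and WT 2, chosen after seeing the data, moved the log2 fold change of Cyp26a1 to -0.0682 in Homo and 0.54 in Het against WT. Leaving out each library in turn gave Cyp26a1 -1.53 to -0.92 in Homo and -0.93 to -0.31 in Het against WT, and Aldh1a1 -0.28 to -0.16, 0.21 to 0.30 and, in Homo against Het, -0.52 to -0.41.

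Over all genes, 36 were called in Homo against WT, 9 in Het against WT and 5 in Homo against Het. DESeq2 called 64, 35 and 22. Without chromosome 17, where Pkd1 lies, 5, 4 and 1 were called. Without a filter on low counts 23 were called in Het against WT, and with only the 2 groups compared 2 in Homo against Het. Leaving out each library in turn gave 23 (without Homo 1) to 40, 8 to 11 and 4 to 7. Of the other retinoid genes DESeq2 called 1 in Homo against WT and edgeR 0 under each alternative. The cause of these differences was not tested, apart from the fewer genes or libraries that an alternative leaves. The replicate number as a block gave 19 calls in Homo against WT and 2 in Homo against Het. The numbers did not pair the libraries (r of deviations -0.0918 to 0.149 over 12 same-number pairs). Depth limits Rarb and Cyp26a1 most, with as few as 69 and 52 counts in a library.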
